A study of Mus musculus with 24 samples.

Results

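The genes described are 10 genes listed under Wnt signalling in mouse renal cortex: the ligand genes Wnt4, Wnt5a, Wnt7b, Wnt9a and Wnt9b, the receptor gene Lgr4, the secreted inhibitor gene Sfrp1, the Dickkopf family gene Dkk3, the destruction complex gene Axin2 and the transcription factor gene Lef1. They were picked by symbol out of the 48526 genes of the count table, and all 10 were found. Lef1 had 2 to 12 counts per library and did not pass the expression filter, so 9 of the 10 are among the 15808 genes tested.

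The samples are renal cortex of C57BL/6 mice, 24 libraries of total RNA in 4 groups of 6. Diabetic PMX-53 mice received streptozotocin, which kills pancreatic beta cells, and drank water containing the peptide PMX-53, an inhibitor of the complement receptor C5aR1. Diabetic vehicle mice received streptozotocin and drank plain water, non-diabetic PMX-53 mice received citrate and the inhibitor, and non-diabetic vehicle mice received citrate and plain water. Streptozotocin was given at 55 mg/kg in 5 injections starting when the mice were 6 weeks old, PMX-53 at 2 mg/kg, and the mice were followed for 24 weeks. The labels give neither a C57BL/6 substrain nor a sex. Each library is labelled as its own sample, and the p-values rest on the spread between such samples, which may be partly technical.

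Wnt ligands are secreted lipid-modified glycoproteins that bind Frizzled receptors and co-receptors. In the canonical branch, binding stops a cytoplasmic destruction complex, which holds Axin2, from degrading beta-catenin, and beta-catenin then acts in the nucleus with TCF/LEF factors such as Lef1. Other branches, for which Wnt5a is best known, act without beta-catenin on cell polarity and movement. In the developing mouse kidney, Wnt9b from the ureteric bud and Wnt4 in the induced mesenchyme drive nephron formation, and Wnt7b from the collecting duct is needed for the medulla to form.

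Promoters in RefSeq (build GRCm38.p6) were matched for 6 of the 10 genes: Lgr4, Lef1, Wnt4, Wnt9a, Wnt9b and Axin2. Printed are the 250 bases before the start of Lgr4, the gene that passed the test in the most comparisons, and of Axin2, the classic feedback target of the canonical branch, for which no comparison passed. Both lie on the plus strand, Lgr4 at chr2:109917397-109917646 and Axin2 at chr11:108920099-108920348. Capitals mark CCAAT boxes on either strand.
Lgr4: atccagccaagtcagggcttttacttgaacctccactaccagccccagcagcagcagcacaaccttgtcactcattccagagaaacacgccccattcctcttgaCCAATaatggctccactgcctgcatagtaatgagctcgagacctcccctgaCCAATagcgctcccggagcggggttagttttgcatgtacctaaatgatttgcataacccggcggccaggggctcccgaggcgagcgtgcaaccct
Axin2: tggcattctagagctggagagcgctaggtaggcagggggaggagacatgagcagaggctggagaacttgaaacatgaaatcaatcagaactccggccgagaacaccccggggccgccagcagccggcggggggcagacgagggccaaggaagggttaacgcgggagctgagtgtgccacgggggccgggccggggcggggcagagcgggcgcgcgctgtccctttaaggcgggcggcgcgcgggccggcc
The Lgr4 window held 2 CCAAT matches, and the Axin2 window held 0. CCAAT was present in 33.8% of 32851 RefSeq promoter windows of this length. Both windows held 0 matches on either strand to the TCF/LEF letters, CTTTG followed by AA, AT, TA or TT, which 14.8% of windows held, and 0 matches to TATAAA, which 12.4% of windows held. No match overlapped another, and a match is a description of the sequence only.

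The libraries held 10964992 to 22000895 counts, and 1 CPM (TMM-normalised counts-per-million unit) rests on 12.1 to 22.5 counts. Markers of cortical cells were present: summed over their lists, proximal tubule markers reached 9360 to 17212 CPM and podocyte markers 317 to 526 CPM over the 24 libraries. With no reference level, these sums cannot tell cortex from cortex with some medulla. Slc14a2, the urea transporter gene of the inner medulla, was at or below 0.400 CPM in 20 libraries and above 1 CPM in 4, at 3.92 CPM in non-diabetic PMX-53 replicate 6 and at 3.46, 2.31 and 4.53 CPM in diabetic vehicle replicates 1, 2 and 4. Results that rest on those 4 libraries are given with and without them. At single genes the 6 diabetic vehicle libraries differed from each of the 18 others, with Nnt at 242 to 272 CPM against 101 to 121 CPM and Acad10 at 11.6 to 16.4 CPM against 57.1 to 82.9 CPM. Another trait of that group cannot be told apart from diabetes or from PMX-53 in any comparison that uses it. In bulk cortex, fewer cells of a type and less RNA per cell cannot be told apart.

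Per kilobase of exon, Lgr4 was the most abundant of the 10 genes and Lef1 the least. Averaged over the 24 libraries, the level was 46.2 CPM per kb for Lgr4, 20.3 for Sfrp1, 4.19 for Dkk3 and 1.15 for Wnt5a. The other 6 genes were below 1 CPM per kb, at 0.378 for Wnt7b, 0.349 for Wnt9a, 0.231 for Axin2, 0.210 for Wnt4, 0.188 for Wnt9b and 0.0490 for Lef1. The 4 most abundant genes kept this order in both vehicle groups, and Lgr4, Sfrp1, Dkk3 and Wnt5a differed from each other beyond their SD. In diabetic vehicle mice Wnt7b came next at 0.718 ± 0.304 CPM per kb, and its mean ± SD range overlapped those of its neighbours, Wnt5a at 1.08 ± 0.259 CPM per kb and Wnt9a at 0.404 ± 0.0706 CPM per kb. In non-diabetic vehicle mice Wnt9a came next at 0.355 ± 0.0668 CPM per kb and Wnt7b followed at 0.221 ± 0.0501 CPM per kb (SD, n = 6 each), with ranges that did not overlap. From Wnt7b down to Wnt4 the neighbours in that group did not differ beyond their spread.

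**Figure D1:**
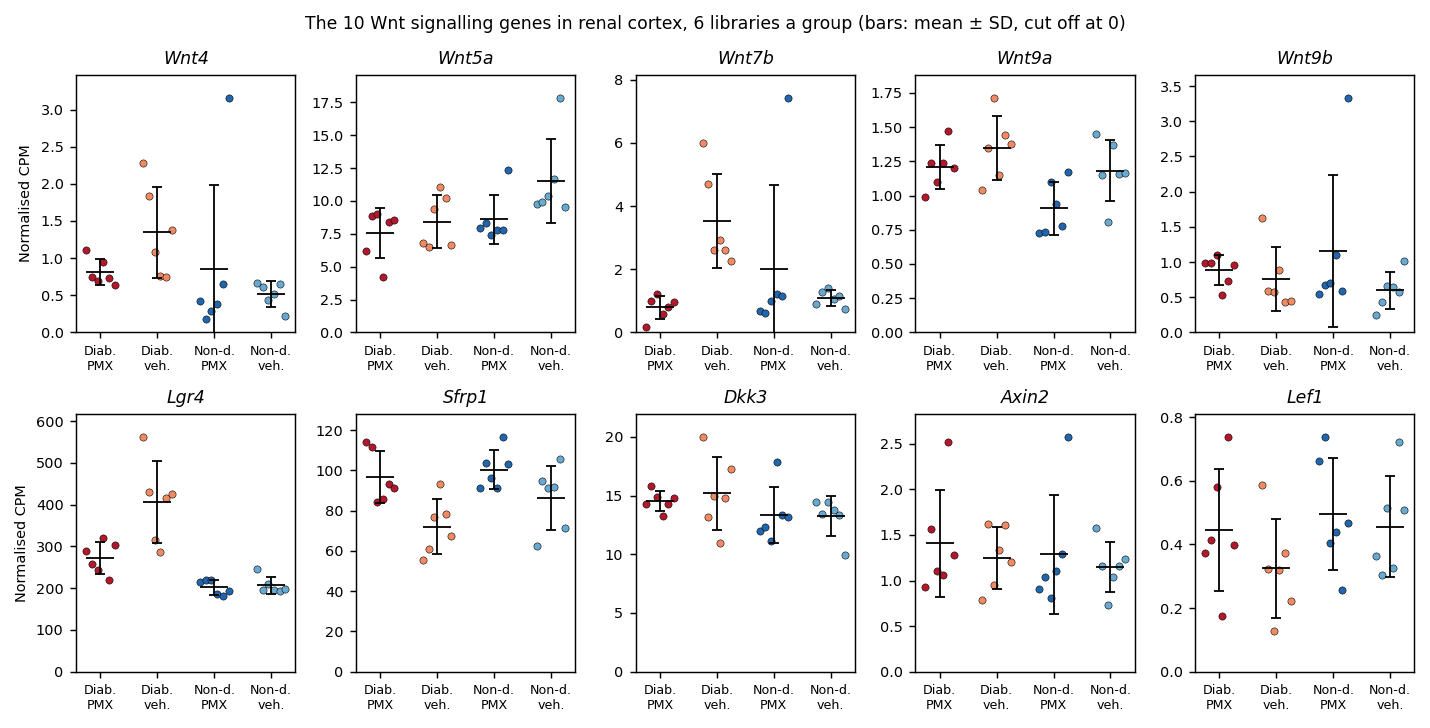
Level of each of the 10 Wnt signalling genes in every library, in normalised CPM on linear axes, with 1 point per library and the mean ± SD of the 6 libraries of a group (bars cut off at 0; Diab., diabetic; Non-d., non-diabetic; PMX, PMX-53; veh., vehicle). Wnt7b lay at 2.26 to 6.00 CPM in diabetic vehicle libraries and Lgr4 at 286 to 562 CPM, and 1 non-diabetic PMX-53 library stood far above its group for Wnt4, Wnt7b and Wnt9b.

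The comparison of diabetic with non-diabetic mice on vehicle asks what diabetes changes without the inhibitor. By edgeR, Lgr4, Wnt7b and Wnt4 rose with diabetes, and 0 of the 9 tested genes fell, though DESeq2 and limma voom each called 1 more gene, lower with diabetes: Wnt5a by DESeq2 and Sfrp1 by limma voom. The 3 of 9 tested genes called higher by edgeR stand beside 20.4% of all tested genes called higher and 19.9% called lower, so the share is not far from that of all genes, and the median log2 fold change of the 9 was 0.20 against 0.00 for all tested genes.

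Lgr4 (ENSMUSG00000050199, chromosome 2, 109917647 to 110014257 on GRCm38) encodes a receptor of R-spondins, which keep Frizzled receptors at the cell surface by withdrawing the ubiquitin ligases Znrf3 and Rnf43. Its level was 286, 421 and 562 CPM (lowest, median and highest) in diabetic vehicle libraries, against 193, 198 and 247 CPM in non-diabetic vehicle libraries. Every diabetic vehicle library lay above every non-diabetic vehicle library. This gave a log2 fold change of 0.97 ± 0.12 (SE, edgeR adjusted p = 8.12e-07), with 6 of 6 libraries above the non-diabetic mean, and it stayed between 0.86 and 1.06 when any library was left out. With the 4 libraries high in Slc14a2 left out, the log2 fold change was 0.90 (edgeR adjusted p = 9.80e-07).

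Wnt7b (ENSMUSG00000022382, chromosome 15, 85535437 to 85582473, minus strand) was at 2.26, 2.78 and 6.00 CPM in diabetic vehicle libraries, against 0.726, 1.1 and 1.40 CPM in non-diabetic vehicle libraries. Again the groups did not overlap, with diabetic vehicle replicates 1 and 2 the highest. The log2 fold change was 1.68 ± 0.51 (edgeR adjusted p = 0.0119). The 3 diabetic vehicle libraries with little Slc14a2 held 2.26, 2.60 and 2.62 CPM of Wnt7b, still above the non-diabetic vehicle libraries, and with the 4 libraries above 1 CPM of Slc14a2 left out, a choice made after seeing the data, the log2 fold change was 1.19 (adjusted p = 0.00129). An antisense gene, AU022754, overlaps Wnt7b on the other strand and held 5 to 10 counts per library in diabetic vehicle mice and 0 to 7 in non-diabetic vehicle mice. Wnt7b itself held 41 to 92 and 10 to 21 counts in these groups. No strand setting of the counting is given in the sources used here, so reads of the pair may not be separable. The antisense neighbour of Wnt5a, Gm2670, held 7 counts over the 24 libraries, and those of Axin2 and Lef1 held 0.

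Wnt4 (ENSMUSG00000036856, chromosome 4, 137277489 to 137299726) was at 0.749, 1.23 and 2.28 CPM in diabetic vehicle libraries, against 0.218, 0.564 and 0.665 CPM in non-diabetic vehicle libraries. The groups did not overlap, although the lowest diabetic vehicle library lay close to the highest non-diabetic one. The log2 fold change was 1.35 ± 0.51 (edgeR adjusted p = 0.0356) and rests on 12 to 35 and 3 to 11 counts per library. The call was lost in 6 of 12 removals of a single library (adjusted p from 0.0265 to 0.0871), with library totals as the only scaling (adjusted p = 0.0633) and without an expression filter (adjusted p = 0.0832), and was kept without the 4 libraries high in Slc14a2 (1.03, adjusted p = 0.0101).

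The 2 lower values that came nearest to the threshold were those of Wnt5a and Sfrp1. Wnt5a (ENSMUSG00000021994, chromosome 14, 28504750 to 28527448), the ligand of the branches without beta-catenin, was at 6.51, 8.09 and 11.0 CPM in diabetic vehicle libraries, against 9.51, 10.1 and 17.8 CPM in non-diabetic vehicle libraries (log2 fold change -0.45 ± 0.19, edgeR adjusted p = 0.0590). The ranges overlapped, and non-diabetic vehicle replicate 5 alone reached 17.8 CPM. Sfrp1 (ENSMUSG00000031548, chromosome 8, 23411502 to 23449632), a secreted Frizzled-related protein gene whose product binds Wnt ligands, was at 55.3, 72.3 and 92.9 CPM against 62.6, 91.4 and 106 CPM in the same groups (-0.26 ± 0.12, adjusted p = 0.0993). Diabetic vehicle replicate 4 held the highest level of both genes in its group. Without it Wnt5a was at -0.54 (adjusted p = 0.0280), Sfrp1 at -0.35 (adjusted p = 0.0242) and Dkk3 at 0.27 (adjusted p = 0.0479), which brings the count to 6 genes. Wnt5a also passed as lower by DESeq2 (-0.45, adjusted p = 0.0420), with library totals as the only scaling (-0.56, adjusted p = 0.0423) and without diabetic vehicle replicate 5 (-0.52, adjusted p = 0.0440). Sfrp1 also passed as lower by limma voom (-0.30, adjusted p = 0.0460), with library totals as the only scaling (-0.36, adjusted p = 0.0392) and without non-diabetic vehicle replicate 1 (-0.34, adjusted p = 0.0246). Neither gene passed with the 4 libraries high in Slc14a2 left out (Wnt5a -0.40, edgeR adjusted p = 0.147, Sfrp1 -0.21, edgeR adjusted p = 0.247). Nor did either pass without an expression filter (edgeR adjusted p = 0.125 for Wnt5a and 0.193 for Sfrp1).

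Dkk3, Wnt9a, Wnt9b and Axin2 did not pass. Dkk3 (ENSMUSG00000030772, chromosome 7, 112116017 to 112159057, minus strand), a divergent member of the Dickkopf family of secreted proteins, averaged 15.2 ± 3.13 CPM in diabetic vehicle and 13.2 ± 1.68 CPM in non-diabetic vehicle libraries (log2 fold change 0.20 ± 0.12, edgeR adjusted p = 0.190). Wnt9a (ENSMUSG00000000126, chromosome 11, 59306928 to 59333552), known for its part in joint formation in mice, was at 0.18 ± 0.17 (adjusted p = 0.454). Wnt9b (ENSMUSG00000018486, chromosome 11, 103727364 to 103749821, minus strand) was at 0.33 ± 0.47 (adjusted p = 0.611), and at -0.29 with the 4 libraries high in Slc14a2 left out. Axin2 (ENSMUSG00000000142, chromosome 11, 108920349 to 108950783), which canonical signalling induces and which in turn promotes the loss of beta-catenin, averaged 1.25 ± 0.340 CPM in diabetic vehicle and 1.15 ± 0.271 CPM in non-diabetic vehicle libraries (0.12 ± 0.28, adjusted p = 0.758). Lef1 (ENSMUSG00000027985, chromosome 3, 131110471 to 131224356) was not tested and lay at 0.127 to 0.587 CPM against 0.304 to 0.722 CPM in these groups. A p above the threshold does not show that the levels were equal.

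Markers of collecting duct principal cells moved with the same contrast, in which 20.4% of all tested genes were called higher and 19.9% lower. Of 8 tested principal cell markers 7 rose with diabetes on vehicle and 0 fell, and their summed level was 277 to 447 CPM in diabetic vehicle and 156 to 217 CPM in non-diabetic vehicle libraries. Medulla and papilla markers rose in 2 of 6 tested cases, with a summed level of 300 to 581 CPM and 222 to 447 CPM, most of which is Slc5a3, an inositol transporter gene. Upk3b, a uroplakin gene on that list, was at 0 in some libraries of 3 groups. Proximal tubule markers fell in 5 of 9 tested cases and rose in 2, and 4 of 7 tested markers of the distal convoluted and connecting tubule were called higher. Fibroblast and pericyte markers fell in 5 of 8 tested cases and rose in 0. They summed to 123 to 177 CPM in diabetic vehicle and 152 to 244 CPM in non-diabetic vehicle libraries. Endothelial markers fell in 3 of 8 tested cases and rose in 1. Mitochondrially encoded genes took 25.9% to 31.9% of the counts in diabetic vehicle and 20.1% to 24.6% in non-diabetic vehicle libraries. The part of these in the rises of Wnt7b, Wnt4 and Lgr4, or in the lower values of Wnt5a and Sfrp1, was not tested.

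**Figure D2:**
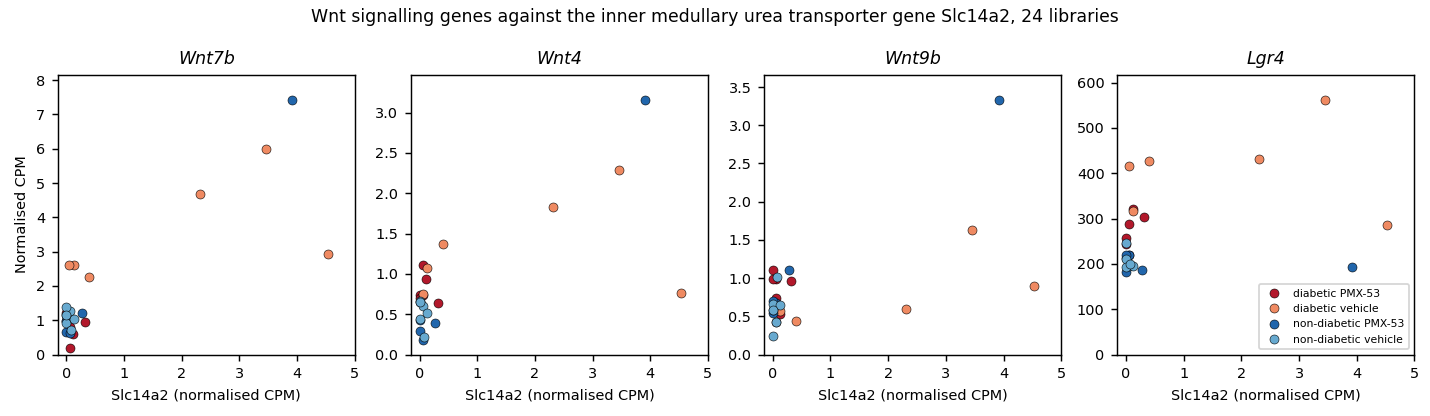
Levels of Wnt7b, Wnt4, Wnt9b and Lgr4 (normalised CPM, vertical axes) against the level of Slc14a2 (normalised CPM, horizontal axes) in the 24 libraries, coloured by group. The 4 libraries above 1 CPM of Slc14a2 include those with the highest Wnt7b, Wnt4, Wnt9b and Lgr4. Among these 4, Lgr4 was at 562, 431 and 286 CPM in diabetic vehicle replicates 1, 2 and 4, the last with the most Slc14a2, and at 192 CPM in the non-diabetic PMX-53 library.

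The comparison of PMX-53 with vehicle in diabetic mice asks what the inhibitor changes in diabetes. Lgr4 and Wnt7b fell with PMX-53, and Sfrp1 rose. These are 1 gene higher and 2 lower of 9 tested, beside 13.9% of all tested genes called higher and 13.5% called lower, and the median log2 fold change of the 9 genes was -0.16 against 0.00 for all tested genes. The comparison shares the diabetic vehicle libraries with that of the vehicle groups, so opposite signs in the 2 comparisons are not independent.

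Lgr4 was at 220, 273 and 320 CPM in diabetic PMX-53 libraries, against 286, 421 and 562 CPM in diabetic vehicle libraries. Diabetic vehicle replicates 3 and 4, at 316 and 286 CPM, lay within the range of the PMX-53 libraries. The difference was -0.58 ± 0.12 on the log2 scale (edgeR adjusted p = 8.78e-04), with 6 of 6 PMX-53 libraries below the vehicle mean, and adjusted p stayed between 5.70e-05 and 0.00300 when single libraries were left out. With the 4 libraries high in Slc14a2 left out, the difference was -0.51 (edgeR adjusted p = 0.00193).

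Wnt7b was at 0.186, 0.878 and 1.22 CPM in diabetic PMX-53 libraries, against 2.26, 2.78 and 6.00 CPM in diabetic vehicle libraries. Every PMX-53 library lay below every vehicle library. The log2 fold change was -2.15 ± 0.54 (edgeR adjusted p = 0.00511), the largest in size among the 9 genes in this comparison, and -1.66 with the 4 libraries high in Slc14a2 left out (adjusted p = 1.50e-04). The antisense gene AU022754 held 1 to 4 counts per library with PMX-53 and 5 to 10 with vehicle, while Wnt7b held 3 to 21 and 41 to 92 counts.

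Markers of several cell types moved in the same comparison, in which 13.9% of all tested genes were called higher and 13.5% lower. Macrophage markers did not, with 0 of 7 tested called. Principal cell markers were lower in 3 of 8 tested cases and higher in 0, and summed to 238 to 331 CPM with PMX-53 and 277 to 447 CPM with vehicle. Medulla and papilla markers were lower in 2 of 6 tested cases and higher in 0 (171 to 306 CPM with PMX-53 and 300 to 581 CPM with vehicle). Of the thin limb markers 3 of 4 tested were lower and 0 higher. Podocyte markers were higher in 7 of 9 tested cases, proximal tubule markers in 5 of 9 and endothelial markers in 3 of 8, with 0 lower in each list. Distal convoluted and connecting tubule markers were higher in 3 of 7, T cell markers in 2 of 5 and smooth muscle and mesangium markers in 1 of 7, again with 0 lower. Thick ascending limb markers were lower in 2 of 7 and higher in 0. Of 5 parietal epithelium markers 1 was higher and 1 lower. The part of all these markers in the falls of Lgr4 and Wnt7b was not tested.

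Sfrp1 was at 84.3, 92.3 and 114 CPM in diabetic PMX-53 libraries, against 55.3, 72.3 and 92.9 CPM in diabetic vehicle libraries. The ranges overlapped through diabetic vehicle replicate 4 alone, and 6 of 6 PMX-53 libraries lay above the vehicle mean. On the log2 scale the difference was 0.43 ± 0.12 (edgeR adjusted p = 0.0131). With the 4 libraries high in Slc14a2 left out it was 0.38 and no longer passed (adjusted p = 0.0583). Fibroblast and pericyte markers were higher in 7 of 8 tested cases and lower in 0, and summed to 180 to 304 CPM with PMX-53 and 123 to 177 CPM with vehicle. Neither their part in the rise of Sfrp1 nor that of the other cell type markers above was tested.

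The other 6 tested genes did not pass. Wnt4 was at 0.639, 0.740 and 1.12 CPM with PMX-53 against 0.749, 1.23 and 2.28 CPM with vehicle, and the ranges overlapped (log2 fold change -0.71 ± 0.47, edgeR adjusted p = 0.276). For Wnt5a the log2 fold change was -0.16 ± 0.20, for Wnt9a -0.16 ± 0.17, for Wnt9b 0.25 ± 0.44, for Axin2 0.16 ± 0.27 and for Dkk3 -0.06 ± 0.12 (adjusted p from 0.530 to 0.729). Dkk3 averaged 14.6 ± 0.836 CPM with PMX-53 and 15.2 ± 3.13 CPM with vehicle.

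**Figure D3:**
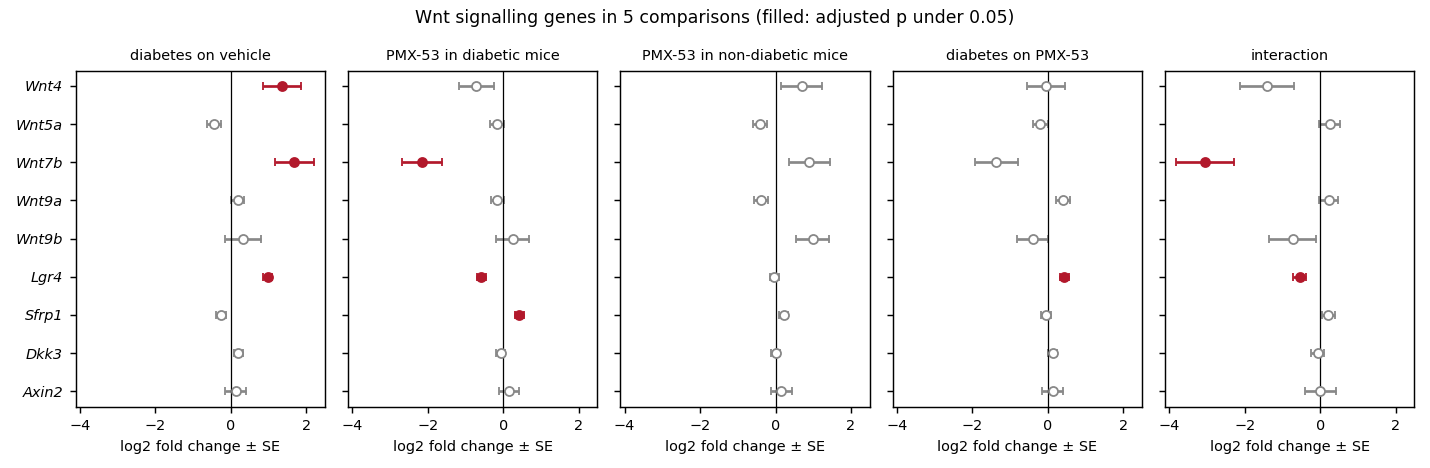
Log2 fold change ± SE of the 9 tested Wnt signalling genes in 5 comparisons (horizontal axes), with filled points for an edgeR adjusted p under 0.05. Filled points are Wnt4, Wnt7b and Lgr4 for diabetes on vehicle, Wnt7b, Lgr4 and Sfrp1 for PMX-53 in diabetic mice, Lgr4 for diabetes on PMX-53, and Wnt7b and Lgr4 for the interaction.

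In non-diabetic mice PMX-53 changed 0 of the 9 tested genes by edgeR, beside 0% of all tested genes called higher and 0% called lower. An unadjusted p under 0.05 was reached by 2 of the 9, Wnt5a (log2 fold change -0.41 ± 0.19) and Wnt9b (0.98 ± 0.44), and by 1142 of all 15808 genes. DESeq2 called 4 genes in all and limma voom 0, and neither called 1 of the 9. Lgr4 was at 181, 203 and 220 CPM with PMX-53, against 193, 198 and 247 CPM with vehicle, and the ranges overlapped (-0.03 ± 0.12, edgeR adjusted p = 0.984). Sfrp1 was at 91.0, 99.5 and 116 CPM against 62.6, 91.4 and 106 CPM (0.22 ± 0.12, adjusted p = 0.766).

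Non-diabetic PMX-53 replicate 6 stood far above its group for the scarce ligands Wnt7b, Wnt4 and Wnt9b. That library held 7.42 CPM of Wnt7b, where the next highest of its group held 1.21 CPM, 3.16 CPM of Wnt4, where the next held 0.646 CPM, and 3.33 CPM of Wnt9b, where the next held 1.1 CPM. It was also the library of its group highest in Axin2, at 2.57 CPM, and in Wnt5a, at 12.4 CPM. The counts behind these levels were 127 for Wnt7b, 54 for Wnt4, 57 for Wnt9b, 44 for Axin2 and 212 for Wnt5a. Many collecting duct and medullary genes were high there too: Aqp2, the water channel gene of principal cells, was at 110 CPM against at most 42.7 CPM in the other 5 libraries of the group, Upk3b at 4.15 CPM against at most 0.116 CPM, and Krt19, a keratin gene, at 3.27 CPM against at most 0.516 CPM. Of the principal cell and the medulla and papilla markers, all but Aqp3, Scnn1b, Scnn1g and Sctr were highest of the group in that library. Scnn1b, at 25.5 CPM, lay below the group median of 26.9 CPM. The antisense gene AU022754 reached 17 counts in that group. With the 4 libraries high in Slc14a2 left out, the log2 fold changes for PMX-53 in non-diabetic mice were -0.44 for Wnt4, -0.22 for Wnt7b, 0.31 for Wnt9b and -0.17 for Axin2, against 0.69, 0.89, 0.98 and 0.15 with all libraries. The Slc14a2 plot shows this library as the highest point for all 3 ligands, at 3.92 CPM of Slc14a2. Diabetic vehicle replicate 4 lies farther right, at 4.53 CPM.

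Diabetes under PMX-53 raised Lgr4 and passed for 0 of the other 8 tested genes, beside 5.52% of all tested genes called higher and 4.52% called lower. Lgr4 was at 220, 273 and 320 CPM in diabetic PMX-53 libraries, against 181, 203 and 220 CPM in non-diabetic PMX-53 libraries, and the groups did not overlap, though they nearly touched. The log2 fold change was 0.43 ± 0.12 (edgeR adjusted p = 0.0227). The call was lost in 4 of 12 removals of a single library, with adjusted p up to 0.0603, and without an expression filter (adjusted p = 0.0685). It was kept with the 4 libraries high in Slc14a2 left out (0.42, edgeR adjusted p = 0.00599). Wnt7b was at 0.186, 0.878 and 1.22 CPM against 0.614, 1.07 and 7.42 CPM (-1.36 ± 0.57, adjusted p = 0.141), and at -0.25 without non-diabetic PMX-53 replicate 6. Wnt4 was at -0.05 ± 0.50 (adjusted p = 0.965). Without that replicate it was at 1.08 and passed (adjusted p = 0.0492), and likewise with the 4 libraries high in Slc14a2 left out (1.08, adjusted p = 0.0201).

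The interaction tests whether PMX-53 acted differently in the 2 kinds of mice (its log2 fold change under diabetes less that without diabetes). It was negative for Wnt7b and Lgr4 and passed for 0 of the other 7 genes, beside 4.66% of all tested genes called higher and 4.76% called lower. For Wnt7b it was -3.05 ± 0.77 on the log2 scale (edgeR adjusted p = 0.0157). Without non-diabetic PMX-53 replicate 6 it was -1.93 (adjusted p = 0.0102), and with the 4 libraries high in Slc14a2 left out -1.44 (adjusted p = 0.0246). For Lgr4 it was -0.54 ± 0.17 (adjusted p = 0.0433), a call that was lost in 17 of 24 removals of a single library (adjusted p from 0.00631 to 0.0745) and with library totals as the only scaling (-0.43, adjusted p = 0.133). The Lgr4 call was kept with the 4 libraries high in Slc14a2 left out (-0.49, edgeR adjusted p = 0.0400). Wnt4 stood at -1.40 ± 0.71 (adjusted p = 0.233), and at 0.05 with the 4 libraries left out.

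Beyond the 10 genes, 119 other genes of the pathway were listed by role. The table holds 118 of them, and 87 were tested. Their tests are given with all libraries only, including the 4 high in Slc14a2. Diabetes on vehicle raised 19 and lowered 16 (median log2 fold change -0.01), and the inhibitor in diabetic mice raised 12 and lowered 11 (median 0.05). By edgeR 0 passed for PMX-53 in non-diabetic mice, where 6 had an unadjusted p under 0.05. These shares are close to those of all genes given above.

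Of the 14 other Wnt ligand genes, 12 were too scarce to test. Wnt10a averaged 1.05 ± 0.241 CPM in diabetic vehicle and 0.339 ± 0.0976 CPM in non-diabetic vehicle libraries, with groups that did not overlap (log2 fold change 1.57 ± 0.46, edgeR adjusted p = 0.00796). Diabetic PMX-53 libraries held it at 0.483 ± 0.242 CPM (-1.1 ± 0.43 against diabetic vehicle, adjusted p = 0.0594). Of 14 tested receptor and co-receptor genes, diabetes on vehicle raised 3 and lowered 4, and PMX-53 in diabetic mice raised 4 and lowered 3. Fzd4, a Frizzled receptor gene, was the clearest: it averaged 137 ± 9.45 CPM in diabetic vehicle and 104 ± 7.59 CPM in non-diabetic vehicle libraries (0.40 ± 0.06, adjusted p = 4.56e-06), and 105 ± 8.95 CPM in diabetic PMX-53 libraries (-0.38 ± 0.06 against diabetic vehicle, adjusted p = 3.24e-05). Its groups did not overlap in either comparison. The Frizzled genes Fzd5 and Fzd1 and the Wnt5a receptor gene Ror1 fell with diabetes on vehicle (-0.42 ± 0.08, -0.57 ± 0.11 and -0.55 ± 0.11). With PMX-53 in diabetic mice Fzd7 and Fzd2 rose (0.44 ± 0.07 and 0.66 ± 0.18), and Ror2, another Wnt5a receptor gene, fell (-0.88 ± 0.24).

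Of 6 tested genes of other secreted antagonists, diabetes on vehicle raised 1 and lowered 2, and PMX-53 in diabetic mice raised 3. Notum encodes an enzyme that removes the lipid from Wnt ligands. It averaged 9.42 ± 1.58 CPM in diabetic vehicle and 17.4 ± 1.13 CPM in non-diabetic vehicle libraries, with no overlap (log2 fold change -0.89 ± 0.10, edgeR adjusted p = 2.34e-07). In diabetic PMX-53 libraries it was at 12.4 ± 2.08 CPM (0.41 ± 0.11 against diabetic vehicle, adjusted p = 0.00542). Sostdc1, an antagonist of Wnt and bone morphogenetic protein signals, rose with diabetes on vehicle (1.02 ± 0.14, adjusted p = 3.14e-06) and Frzb, the Sfrp3 gene, fell (-0.74 ± 0.15). Sfrp2 and Wif1, a Wnt inhibitory factor gene, rose with PMX-53 in diabetic mice (1.20 ± 0.37 and 1.47 ± 0.51), both at averages near or below 1 CPM. Of 3 tested genes of the R-spondin axis, Znrf3, which encodes a ligase that removes Frizzled receptors, rose with diabetes on vehicle (0.19 ± 0.06, adjusted p = 0.0235). Among 8 tested genes of Wnt secretion, Snx3 fell with diabetes on vehicle (-0.21 ± 0.08) and Vps29 fell with PMX-53 in diabetic mice (-0.15 ± 0.05).

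Inside the cell, Ctnnb1, the beta-catenin gene, averaged 281 ± 21.6 CPM in diabetic vehicle and 336 ± 7.12 CPM in non-diabetic vehicle libraries (log2 fold change -0.26 ± 0.05, edgeR adjusted p = 5.84e-05). It averaged 325 ± 5.67 CPM in diabetic PMX-53 libraries (0.21 ± 0.05 against diabetic vehicle, adjusted p = 0.00102), and the groups did not overlap in either comparison. Of 20 tested genes of the destruction complex and transducers, diabetes on vehicle raised 6 and lowered 2, and PMX-53 in diabetic mice raised 1 and lowered 3. Tnks, which encodes a tankyrase that promotes the loss of axins, was at 0.38 ± 0.06 and -0.34 ± 0.06 in these comparisons, and the Dishevelled gene Dvl1 at 0.25 ± 0.06 and -0.25 ± 0.06. Dvl3 rose with diabetes on vehicle (0.26 ± 0.06), and Frat1, whose product inhibits GSK3, fell with PMX-53 in diabetic mice (-0.58 ± 0.20). Of 15 tested TCF partners and nuclear cofactors, diabetes on vehicle raised 4 and lowered 3, and PMX-53 in diabetic mice raised 1 and lowered 2. The beta-catenin cofactor genes Bcl9l and Pygo2 fell with diabetes on vehicle (-0.46 ± 0.08 and -0.27 ± 0.07), while the repressor gene Hbp1 and the TCF gene Tcf7l1 rose (0.26 ± 0.06 and 0.47 ± 0.17). With PMX-53 in diabetic mice Pygo2 was at 0.25 ± 0.07, Hbp1 at -0.24 ± 0.06 and the corepressor gene Tle4 at -0.21 ± 0.07.

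Commonly listed target genes of beta-catenin moved in both directions, with 4 of 14 tested higher and 3 lower with diabetes on vehicle, and 3 higher and 2 lower with PMX-53 in diabetic mice. Sp5, a transcription factor gene, averaged 4.85 ± 0.835 CPM in diabetic vehicle and 9.03 ± 1.39 CPM in non-diabetic vehicle libraries (log2 fold change -0.89 ± 0.12, edgeR adjusted p = 2.38e-06), and 7.97 ± 1.5 CPM in diabetic PMX-53 libraries (0.71 ± 0.13 against diabetic vehicle, adjusted p = 1.34e-04). Fst, the follistatin gene, went the other way, at 3.57 ± 0.57 and -3.84 ± 0.58 (adjusted p = 2.83e-05 and 4.78e-05). Its level was 0.977, 2.50 and 9.42 CPM in diabetic vehicle libraries and at most 0.588 CPM in non-diabetic vehicle libraries, and follistatin is also a marker of the thin limb of the loop of Henle, of which 3 of 4 tested markers, Fst among them, rose. Apcdd1, a membrane inhibitor of Wnt signalling, was at 1.79 ± 0.33 and -1.17 ± 0.30. Ccnd1, the cyclin D1 gene, did not pass with diabetes on vehicle (0.24 ± 0.14, adjusted p = 0.175) and was higher in diabetic mice given PMX-53 than in those given vehicle (0.67 ± 0.14, adjusted p = 0.00117). Of 11 tested planar cell polarity genes 2 rose and 2 fell with diabetes on vehicle. Celsr1 and Fzd6 rose (0.31 ± 0.06 and 0.27 ± 0.07), and Celsr2 and Vangl1 fell (-0.56 ± 0.08 and -0.27 ± 0.08). With PMX-53 in diabetic mice Celsr2 rose (0.41 ± 0.08) and Fzd6 fell (-0.21 ± 0.06).

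**Figure D4:**
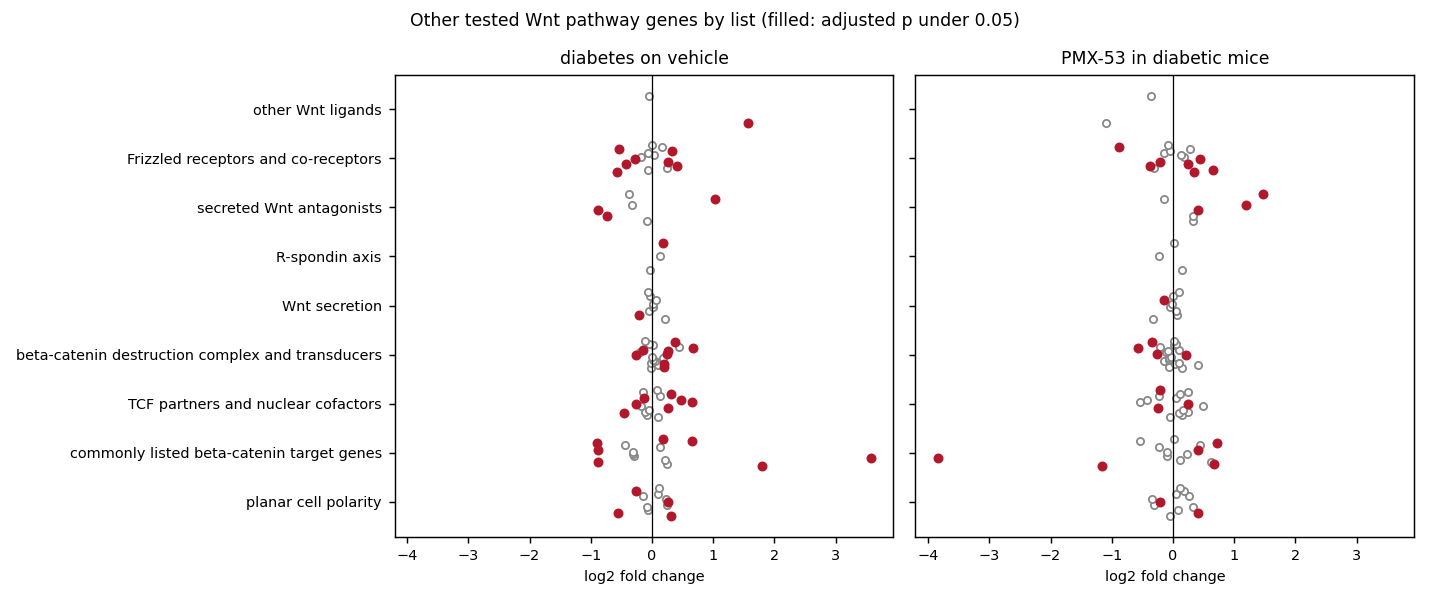
Log2 fold changes of the 87 other tested pathway genes by role for diabetes on vehicle (left) and PMX-53 in diabetic mice (right), with 1 point per gene and list (a gene in 2 lists is drawn in both) and filled points for an edgeR adjusted p under 0.05. Filled points lie on both sides of 0 in most lists, and Fst lies farthest out at 3.57 on the left and -3.84 on the right.

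Under PMX-53, 4 of the 87 genes were higher with diabetes and 1 lower: Ccnd1 (log2 fold change 1.05 ± 0.14), Sostdc1 (0.77 ± 0.14), Fgf9 (0.47 ± 0.10) and Celsr1 (0.29 ± 0.06) were higher and Notum lower (-0.40 ± 0.10). All tested genes were called higher in 5.52% and lower in 4.52% of cases there. By edgeR the interaction passed for 8 of the 87, 6 positive and 2 negative, beside 4.66% and 4.76% of all tested genes, so together the share is close to that of all genes. It was positive for Ccnd1 (0.81 ± 0.20), Sp5 (0.66 ± 0.17), Fzd7 (0.51 ± 0.10), Notum (0.49 ± 0.15), Fzd5 (0.41 ± 0.11) and Ctnnb1 (0.21 ± 0.06), and negative for Fzd4 (-0.44 ± 0.08) and Dvl1 (-0.24 ± 0.08). Fgf9, a fibroblast growth factor gene, was named after its value was seen.

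Within groups, each of the 9 tested genes was set beside the genes it varied most like. Likeness was Pearson's r of log2 CPM deviations from the group means over the 24 libraries. These share depth and dissection as sources of variation. The companions have the highest r among all other tested genes. Such picking gives high values even where genes do not vary together, and r was not tested. Wnt7b varied most like S100a6, Fxyd4 and Scel (r = 0.84, 0.82 and 0.82), and Wnt4 most like Styk1, Krt18 and Spon1 (r = 0.87, 0.86 and 0.86). These values lean on non-diabetic PMX-53 replicate 6: without it r was 0.70, 0.64 and 0.63 for the companions of Wnt7b and 0.77, 0.70 and 0.72 for those of Wnt4. Sfrp1 varied most like Kctd12b, Pdia5 and Dlc1 (r = 0.86, 0.85 and 0.83), Lgr4 like Bmp15, Zfp110 and 2810402E24Rik (r = 0.80, 0.80 and 0.79) and Wnt5a like Slc22a19, Gm18159 and Cyp7b1 (r = 0.80, 0.80 and 0.75). Dkk3 was nearest to Socs3, Zfat and Fbxo44 (r = 0.76, 0.72 and 0.71), Wnt9a to Acsl6, 4732471J01Rik and Gm43503 (r = 0.75, 0.69 and 0.69), Wnt9b to Ppp3ca, Gmps and Slc26a7 (r = 0.74, 0.70 and 0.70), and Axin2 to Wnt10a, Tead4 and Serinc2 (r = 0.71, 0.69 and 0.69). Without the same library r was 0.56 for Axin2 with Wnt10a, 0.65 with Tead4 and 0.55 with Serinc2, and 0.55 for Wnt9b with Slc26a7. Between the genes themselves, Wnt4 and Wnt7b had r = 0.68, and 0.36 without that library.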

How the data were processed

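The deposited table holds whole-number read counts per gene for 24 libraries, not normalised, per the file headers and values. Bcl2fastq 2.20.0.422 and STAR on GRCm38 are named in the submitters' processing notes, and libraries were made with a directional kit from 200 ng of ribosome-depleted total RNA, per the labels' protocols. For STAR's version, the annotation, the program that counted reads and any strand setting, the sources used here give nothing.

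The counts entered edgeR 4.0.16 under R 4.3.3: default expression filter (15808 of 48526 genes), TMM scaling, 1 coefficient per group over all 24 libraries, robust quasi-likelihood F tests and Benjamini-Hochberg adjustment over all tested genes (threshold 0.05). The SE is the log2 fold change divided by the square root of F. Positions and exon lengths come from GENCODE M21. Alternatives were DESeq2 1.42.0, limma 3.58.1 (voom with quality weights), other scalings and filters, a replicate block, fits without mitochondrially encoded and ribosomal RNA genes or on only the groups compared, and libraries left out. Figures were drawn with matplotlib 3.10.9.

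The genes and lists were chosen with earlier results of these data known. Named were all 10 genes, up to 4 passing genes with the smallest p per pathway list and comparison, and 3 nearest genes by correlation. The model was tested on simulated counts. No 2 libraries were identical, and the 60 pairs within groups were farther apart than counting noise allows (lowest chi-square per degree of freedom 5.43). Libraries with the same replicate number did not vary together (36 correlations of deviations, -0.124 to 0.131), so numbers were not used as pairs.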

Additional observations from a re-analysis of the deposited data

Results flagged for a closer look

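Over the 10 genes and 4 groups, 40 sets of 6 libraries were searched for a library far from the rest (Dixon's ratio above its 95% critical value), which chance finds in about 1 set of 20, and 9 were found. Non-diabetic PMX-53 replicate 6 was the highest of its group and far from the next for Wnt4 (3.16 CPM), Wnt5a (12.4 CPM), Wnt7b (7.42 CPM), Wnt9b (3.33 CPM) and Axin2 (2.57 CPM). The other 4 were Wnt5a in non-diabetic vehicle replicate 5 (17.8 CPM), Dkk3 in non-diabetic PMX-53 replicate 4 (17.9 CPM), Dkk3 in non-diabetic vehicle replicate 6 (9.95 CPM, far below its group) and Lgr4 in non-diabetic vehicle replicate 1 (247 CPM).

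The effect of PMX-53 differed between diabetic and non-diabetic mice by the interaction test for Wnt7b (-3.05 on the log2 scale) and for Lgr4 (-0.54). For Wnt7b the difference shrank to -1.44 with the 4 libraries high in Slc14a2 left out. The Lgr4 call was lost in 17 of 24 removals of a single library. It was also lost with library totals as the only scaling (edgeR adjusted p = 0.133) and without an expression filter (edgeR adjusted p = 0.106). Both tests use the diabetic vehicle libraries, which differed from all others at Nnt and Acad10.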

How the results depend on the processing

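By edgeR, the count of Wnt genes past the threshold for diabetes on vehicle was 3, and 2 to 6 with single libraries left out. Over the other settings, DESeq2 and limma voom among them, it was 2 to 4. Wnt4 was lost without an expression filter and with library totals as the only scaling, where Wnt5a and Sfrp1 passed as lower. For PMX-53 in diabetic mice the edgeR count was 3, and 2 with the 4 libraries high in Slc14a2 left out. For PMX-53 in non-diabetic mice it was 0 under every alternative run. For diabetes on PMX-53 it was 1, 0 without an expression filter, 2 with those 4 libraries left out and 0 to 2 with single libraries left out. For the interaction it was 2, 1 with library totals as the only scaling, 1 without an expression filter, and 1 to 2 with single libraries left out. DESeq2 gave 4, 3, 0, 1 and 2 in the order above, and limma voom the same. With the replicate block the counts were 3, 3, 0, 1 and 2, so the block changed none of them. Library totals as the only scaling moved the median of all genes to -0.09 for diabetes on vehicle, 0.12 for PMX-53 in diabetic mice and 0.12 for the interaction, and the share of higher genes among those called to 31.2%, 79.5% and 79.3%, against 50.7%, 50.7% and 49.5%.

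Each value whose direction turned had not passed with all libraries, and of the turned values below only Wnt4 for diabetes on PMX-53 passed, with libraries left out (adjusted p = 0.0201 without the 4 high in Slc14a2, 0.0492 without non-diabetic PMX-53 replicate 6). With the 4 libraries high in Slc14a2 left out, Wnt9b was at -0.29 for diabetes on vehicle, 0.27 for diabetes on PMX-53 and 0.57 in the interaction, Wnt4 at -0.44 for PMX-53 in non-diabetic mice, 1.08 for diabetes on PMX-53 and 0.0476 in the interaction, and in non-diabetic mice Wnt7b at -0.22 and Axin2 at -0.17. With limma voom, Wnt4 was at -0.18 and Dkk3 at -0.0138 for PMX-53 in non-diabetic mice, and Wnt4 at 0.87 for diabetes on PMX-53. With the replicate block Wnt4 was at 0.11 there. Library totals put Dkk3 at 0.0488 for PMX-53 in diabetic mice and 0.0267 in the interaction, and Axin2 without an expression filter was at -0.00344 in the interaction. The cause was not tested.

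With single libraries left out, Axin2 ranged from -0.14 to 0.45 for diabetes on PMX-53, -0.26 to 0.33 in the interaction, -0.10 to 0.26 for PMX-53 in diabetic and -0.17 to 0.27 in non-diabetic mice. Dkk3 ranged from -0.15 to 0.0336 in the interaction, -0.14 to 0.0263 for PMX-53 in diabetic and -0.10 to 0.0556 in non-diabetic mice. For PMX-53 in non-diabetic mice Lgr4 ranged from -0.0596 to 0.0241, Wnt4 from -0.44 to 0.90 and Wnt7b from -0.22 to 1.08. For diabetes on PMX-53 Wnt4 ranged from -0.26 to 1.08 and Wnt9b from -0.54 to 0.27, and for diabetes on vehicle Wnt9b from -0.0237 to 0.54.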
